A study of Mus musculus with 5 samples.

Results

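RING1B ChIP-Seq peaks of mouse embryonic fibroblasts (MEFs) that express the mutant histone H3.3 K27M were set against those of control MEFs, position by position. Every peak of the 2 deposited lists was used, 821 for the control and 286 for H3.3 K27M, which is 1107 of the 1418 peaks deposited for the series. A control peak was called kept when it shared at least 1 base with an H3.3 K27M peak and lost when it shared none, and an H3.3 K27M peak without a shared base was called new. The series holds 5 RING1B samples with 1 library each, and only the control and H3.3 K27M lists enter here.

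The control cells are the parental MEFs, which carry EED alleles flanked by loxP sites (EED floxed) and no deletion. The H3.3 K27M cells are the same MEFs after stable lentiviral transduction of H3.3 K27M, so both groups share the floxed EED alleles and their endogenous wild-type histone H3 genes. The MEFs derive from an E13.5 embryo, and whether the control received an empty vector is not given in the sources used here. The transduced histone is added to endogenous H3 rather than replacing it. Peak lists do not measure transcription, so the fibroblast identity could not be checked from them; of 15 fibroblast marker genes only Pdgfra, a growth factor receptor gene, had its start in a control peak, and that peak was lost.

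RING1B is the catalytic subunit of Polycomb Repressive Complex 1 (PRC1), which ubiquitinates histone H2A at lysine 119. Polycomb Repressive Complex 2 (PRC2) methylates histone H3 at lysine 27, and CBX subunits of canonical PRC1 bind the resulting H3K27me3, while variant PRC1 complexes reach unmethylated CpG islands without this mark. H3 K27M inhibits PRC2. In differentiated cells Polycomb complexes cover developmental transcription factor genes that the lineage does not use, and their peaks are centred on CpG-rich promoters.

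With 1 library a side there is no replicate check and no p-value, and a difference is a difference between these peak calls. The lists give no reads or scores, so the depth is unknown, and a base outside a peak is a base the caller did not report, not a base without RING1B. The narrowest control peak spanned 1199 bases and the narrowest H3.3 K27M peak 399 bases, so the lists did not share a lower limit of width. Of the 286 H3.3 K27M peaks 59 were under 1000 bases, and they carried 32 kept and 27 new calls. Without them 23.8% of control peaks were kept and 13.2% of H3.3 K27M peaks were new, against 27.6% and 19.9% with them. Bracketed intervals are 95% Wilson intervals and cover counting error only.

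To show what kept, uncovered, lost and new sequence looks like, 200-base stretches were taken from mm9 (NCBIM37), given on the plus strand with every CpG in capitals. Each is the 200-base bin with the most CpG, exons left aside, in its part of the peak. The first pair comes from the widest kept control peak outside the Hox clusters with a transcription factor gene start, at Gata4, and both lie in an intron of Gata4. The stretch at chr14:63864201-63864400 is under an H3.3 K27M peak and holds 16 CpG. The stretch at chr14:63874601-63874800, in the same control peak, is not under an H3.3 K27M peak and holds 31 CpG.
Gata4, covered: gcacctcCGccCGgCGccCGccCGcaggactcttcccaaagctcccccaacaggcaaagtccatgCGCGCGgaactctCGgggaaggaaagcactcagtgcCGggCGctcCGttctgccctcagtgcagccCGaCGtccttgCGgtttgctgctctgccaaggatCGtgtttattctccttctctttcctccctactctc
Gata4, uncovered: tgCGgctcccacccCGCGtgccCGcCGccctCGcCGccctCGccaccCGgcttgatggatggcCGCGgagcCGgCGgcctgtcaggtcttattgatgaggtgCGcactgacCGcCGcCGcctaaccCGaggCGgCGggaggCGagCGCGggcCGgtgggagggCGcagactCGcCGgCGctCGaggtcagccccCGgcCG
The next pair comes from the widest such peak less than 50% covered, at Vax2, again within an intron. The covered stretch at chr6:83665001-83665200 holds 10 CpG and the uncovered stretch at chr6:83661801-83662000, 543 bases from the Vax2 start, holds 16.
Vax2, covered: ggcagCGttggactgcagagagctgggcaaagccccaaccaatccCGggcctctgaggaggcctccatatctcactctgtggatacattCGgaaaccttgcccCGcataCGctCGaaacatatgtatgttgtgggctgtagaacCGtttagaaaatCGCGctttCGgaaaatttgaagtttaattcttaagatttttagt
Vax2, uncovered: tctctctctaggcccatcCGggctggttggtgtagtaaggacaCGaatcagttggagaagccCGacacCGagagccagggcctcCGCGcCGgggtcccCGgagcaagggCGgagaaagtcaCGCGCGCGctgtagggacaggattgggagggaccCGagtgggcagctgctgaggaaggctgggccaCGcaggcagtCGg
Ptch1, the hedgehog receptor gene, lies in the widest lost control peak of the signalling, guidance, channel, adhesion and matrix lists. Its stretch at chr13:63667001-63667200, in an intron, holds 31 CpG.
Ptch1, lost: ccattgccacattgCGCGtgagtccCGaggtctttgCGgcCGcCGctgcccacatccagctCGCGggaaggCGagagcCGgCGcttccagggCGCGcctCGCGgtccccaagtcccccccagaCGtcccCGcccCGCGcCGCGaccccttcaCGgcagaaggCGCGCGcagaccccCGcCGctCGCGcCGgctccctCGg
The last stretch, at chr8:19757201-19757400, comes from the widest new H3.3 K27M peak made mostly of repeated sequence. It is intergenic, 27455 bases from the nearest protein-coding start, and holds 4 CpG.
New on chromosome 8: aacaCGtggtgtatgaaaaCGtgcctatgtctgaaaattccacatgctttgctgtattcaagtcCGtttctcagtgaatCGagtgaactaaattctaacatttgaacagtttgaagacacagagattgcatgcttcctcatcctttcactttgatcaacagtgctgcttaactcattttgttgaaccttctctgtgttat
In these examples the uncovered and lost stretches hold more CpG than the covered ones, and the new stretch is CpG-poor. The covered and uncovered pairs run opposite to kept peaks as a whole, where the covered part had more CpG per bin in 169 of 220.

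Wide control peaks were kept and narrow ones lost. Of the 821 control peaks, 227 were kept (27.6%, 24.7 to 30.8%) and 594 were lost (72.4%). The paper itself reports that H3.3 K27M did not change the number or general distribution of RING1B and CBX2, on evidence that includes signal tracks. The deposited RING1B lists hold 821 and 286 peaks, and the reason for the difference from that statement was not tested. The kept peaks had a median width of 12599 bases (quartiles 6399 and 19199) and the lost peaks 2399 bases (quartiles 1599 and 4199). Although fewer in number, the kept peaks held 3.38 Mb of the 5.50 Mb in control peaks. Of 238 control peaks under 2000 bases 1 was kept (0.420%). The share rose to 11.7% of 291 peaks from 2000 to under 5000 bases and to 45.1% of 133 from 5000 to under 10000. It was 78.2% of 101 peaks from 10000 to under 20000 bases and 91.4% of 58 peaks of 20000 or more. A wide peak has more bases with which to meet another peak, so part of this order follows from the definition of kept.

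**Figure D1:**
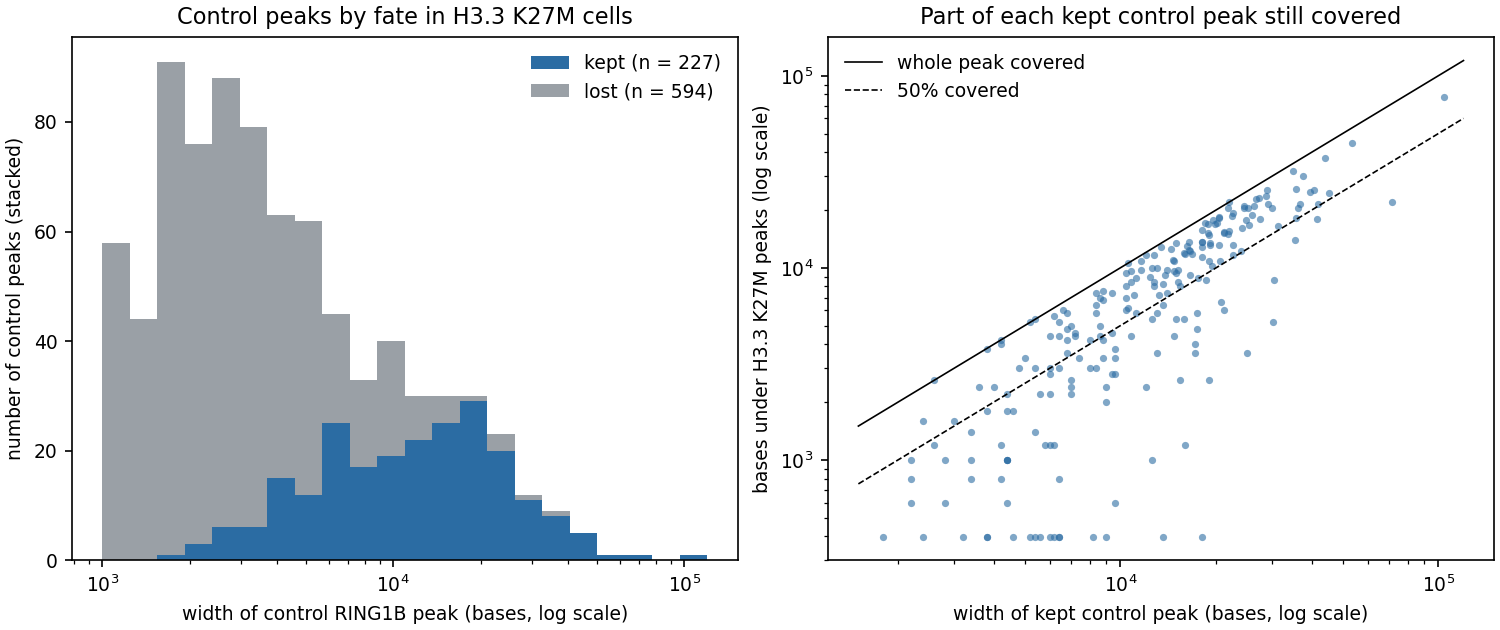
Left, the number of control RING1B peaks by width (bases, log scale), stacked as 227 kept and 594 lost. Right, each kept control peak by its width and the bases of it under H3.3 K27M peaks (both log scales), with lines at whole and 50% coverage. Kept peaks fill the right end of the width range, and their covered bases lie at or below the line of whole coverage, with a row of points at 399 bases, the narrowest H3.3 K27M peak.

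Sequence composition separated the classes less than width did. CpG-island-like sequence (500-base windows with a GC content of 55% or more in which CpG reached 0.65 of its expected number) was present in 215 of 227 kept peaks (94.7%) and in 534 of 594 lost peaks (89.9%). Control peaks with 2 or more islands were kept in 153 of 304 cases (50.3%) and those with 1 island in 62 of 445 (13.9%). Islands nevertheless filled less of a kept peak, a median of 22% of its bases against 50% in lost peaks, and the median CpG number per 200-base bin was 6.02 in kept and 10.1 in lost peaks. The lost peaks were thus mostly narrow intervals filled to a large part by an island, and the kept peaks were mostly wide domains with less CpG-rich sequence around their islands. A protein-coding gene start lay in 176 of the kept peaks (77.5%) and in 353 of the lost peaks (59.4%).

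Hox clusters, which set segment identity along the body axis, made up 4 of the 5 widest kept domains. The HoxC peak (chr15:102726001-102829999) spanned 103999 bases, of which 77199 remained under an H3.3 K27M peak. The HoxA peak (chr6:52152801-52224199) kept 21999 of 71399 bases. At HoxD (chr2:74484001-74537399) 44399 of 53399 bases remained, and at Hoxb13 (chr11:96026401-96070399) 37399 of 43999. The HoxA domain thus retained a much smaller part, 30.8%, than the HoxC (74.2%), HoxD (83.1%) and Hoxb13 (85.0%) domains. Outside these clusters the widest kept peaks included Gata4 (41799 bases, 51.2% covered), a zinc finger factor gene of endoderm and heart, and Zic1 with Zic4 (40599 bases, 62.6% covered), zinc finger genes of the dorsal neural tube. They also included Pax6 (37599 bases, 80.3% covered), the paired-box gene of eye and forebrain. The other 3 of the 10 widest were a peak of 45399 bases at chr17:36281401-36326799, in the histocompatibility region, with 38.2% repeated sequence, wider than that at Hoxb13, and peaks at chr3:96177001-96218599 and chr3:96126201-96165599, where 48.4% and 51.5% of the sequence was repeated.

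The widest lost peaks were not all narrow. A peak of 37599 bases over Hoxb3, Hoxb4 and Hoxb5 (chr11:96158601-96196199) shared no base with an H3.3 K27M peak. Dll1, a Notch ligand gene, lay in a lost peak of 21199 bases (chr17:15512001-15533199). Dlx1 and Dlx2, homeobox genes of forebrain interneurons, shared a lost peak of 19599 bases (chr2:71365401-71384999). Tbx1, a T-box gene of the pharyngeal arches, lay in a lost peak of 14399 bases (chr16:18580401-18594799). Igf2bp3, an RNA-binding protein gene, lay in a lost peak of 15599 bases (chr6:49163201-49178799), and a new H3.3 K27M peak of 599 bases was called 7401 bases away. The remaining 5 of the 10 widest were at Prss16 (22999 bases), at Atp5g1 and Ube2z (16599 bases), at Zswim5 (15199 bases), an intergenic interval on chromosome 15 (25199 bases) and a peak of 29399 bases on chromosome 3 with over 50% repeated sequence.

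At the other end, the narrowest kept control peak (chr6:53769601-53771399, at Tril) spanned 1799 bases, with 399 bases covered. Npy, the neuropeptide Y gene, lay in a kept peak of 2599 bases that was covered in full. At Sypl2 1599 of 2399 bases were covered, and at Cyp24a1, which encodes the vitamin D 24-hydroxylase, 599 of 2799. These peaks were exceptions in their width classes.

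The share kept varied between chromosomes. It was lowest on chromosome 16 (1 of 17 control peaks, 5.88%) and chromosome 15 (4 of 43, 9.30%) and highest on chromosome 6 (15 of 34, 44.1%).

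What remained of a kept peak was mostly an interior stretch. The median kept control peak had 58.5% of its bases under H3.3 K27M peaks (quartiles 34.8 and 76.9%, range 2.22 to 100%), and 60.5% of all bases in kept peaks were covered. In 202 of 227 kept peaks (89.0%) bases were left uncovered at both ends, in 18 at a single end, and in 7 the cover ran to both ends. A median of 1800 bases was uncovered on each side. The covered part was a single stretch in 223 kept peaks. Its centre lay at a median of 49.4% of the control width (quartiles 44.5 and 55.4%), near the control midpoint. An H3.3 K27M peak reached beyond a boundary of the control peak in 19 of 227 cases (8.37%).

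Divided into 20 positions from left to right, the first was covered in 11.9% of kept peaks, the position just left of the midpoint in 79.3% and the last in 7.05%. Coverage rose from either boundary to a flat middle. Among the 132 kept peaks of 10000 bases or more, 4.55% of positions 100 bases inside a boundary were covered. At 1000 bases the share was 17.4%, at 2000 bases 42.4%, at 3000 bases 60.2% and at 5000 bases 75.8%. The uncovered margin was thus mostly 1000 to 5000 bases deep. It grew with the width of the control peak, from a median of 1000 bases per side at 2000 to under 5000 bases to 1600, 2200 and 3000 in the following width classes. The covered share grew as well, with medians of 37.7%, 46.3%, 66.7% and 70.9%.

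The midpoint was covered in 179 of 227 kept peaks (78.9%), but a single stretch wider than 50% of a peak has to cover its midpoint. Of the 89 kept peaks less than 50% covered, where the midpoint is free, it was covered in 42 (47.2%, 37.2 to 57.4%), and 85 were uncovered at both ends. A short stretch placed anywhere inside a peak also seldom touches its ends, so these counts do not show a preference for the interior in such peaks.

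**Figure D2:**
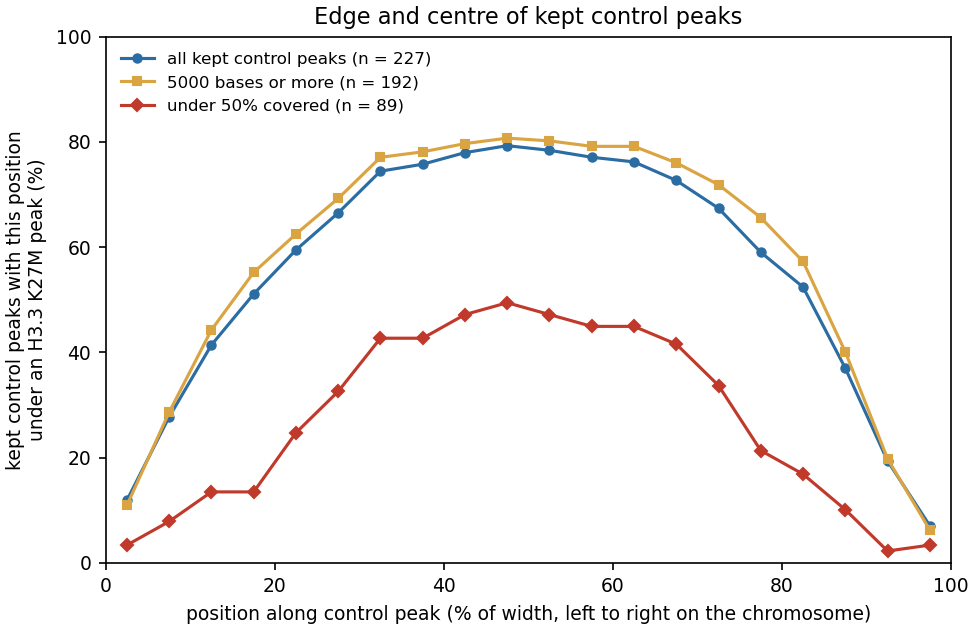
Share of kept control peaks (%) in which each of 20 positions along the control peak (% of its width) lay under an H3.3 K27M peak, for all 227 kept peaks, for the 192 of 5000 bases or more and for the 89 less than 50% covered. In each set the share is low at the ends and highest near the centre, 79.3% for all kept peaks and under 50% for the least covered ones.

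Tcf21, a bHLH gene of mesenchyme, and Rfx4, a winged-helix factor gene of brain, had the most complete cover among peaks of at least 5000 bases in which no more than 50% of words were repeated. At Tcf21 11599 of 11999 bases were covered and at Rfx4 (chr10:84216801-84221999) all 5199. The other 3 of the 5 highest were repeat-rich peaks, 2 on chromosome 9 (91.4% and 94.3% repeated) and 1 on chromosome 2 (71.3%).

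The least covered kept peaks hold a single remnant of 399 bases, the narrowest interval in the H3.3 K27M list. At Irx5, an Iroquois homeobox gene, 399 of 13599 bases were covered (chr8:94877401-94890999), with 6800 bases uncovered to the left and 6400 to the right. At Bhlhe22, a neuronal bHLH gene, 399 of 6399 bases remained (chr3:17950601-17956999). The other 3 were a peak of 17999 bases at chr17:36350801-36368799, one of 8999 bases that overlaps an exon of the T-box gene Tbr1, and one of 8199 bases on the X chromosome. These peaks count as kept although 2.22 to 6.24% of their bases remained.

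Only 4 kept peaks were split into 2 covered pieces, Gata4, Vax2 and Zic1 with Zic4 among them. The gap was 8400 bases at Gata4, 9800 at Vax2 and 11400 at Zic1 and Zic4. The authors' methods state a maximum gap of 10000 bases for peak calling, and the gaps at Gata4 and Vax2 are shorter. The part of that setting in the splits was not tested. The gap at Vax2, a homeobox gene of the ventral eye, contained the start of the gene itself. At Gata4 and Vax2 the bin with the most CpG lay in the gap (31 and 19 CpG per 200 bases against at most 25 and 13 in the pieces). At Zic1 and Zic4 it lay in a piece (24 against 14).

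In the reverse case 2 H3.3 K27M peaks each joined 2 control peaks. The peak of 20199 bases at chr10:45188801-45208999, which holds the start of Lin28b, the gene for an inhibitor of let-7 microRNA maturation, joined control peaks of 10399 and 6199 bases. These 2 control peaks lay 5201 bases apart, also less than the stated maximum gap. The other joining peak was a repeat-rich interval on chromosome 9.

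**Figure D3:**
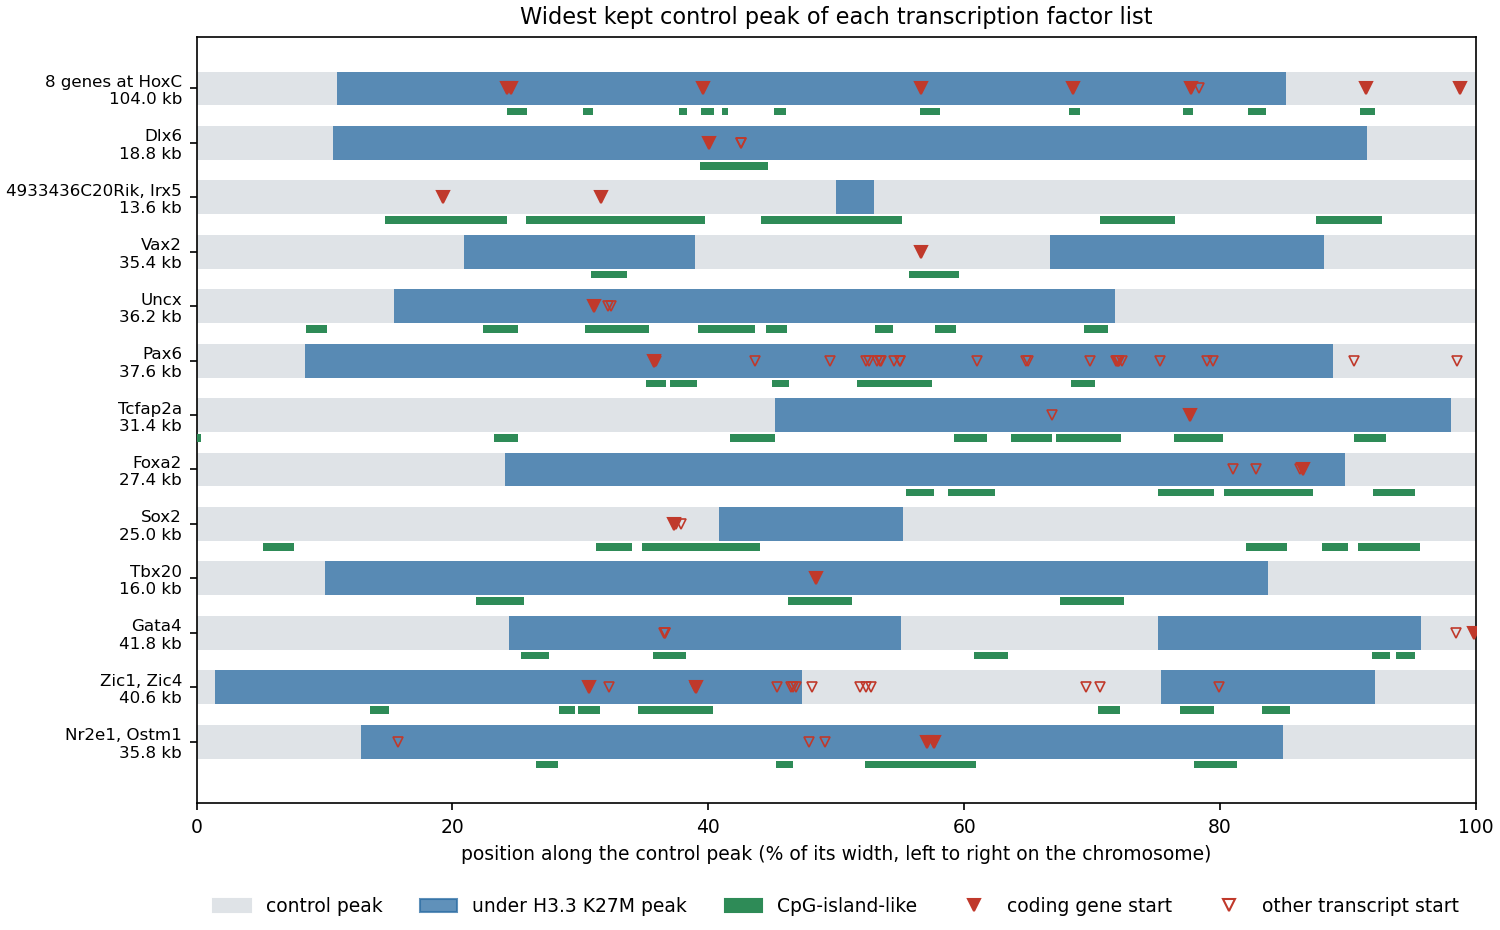
The widest kept control peak of each of the 13 transcription factor lists, drawn from 0 to 100% of its width (grey), with the part under H3.3 K27M peaks (blue), CpG-island-like sequence (green), gene-model starts of coding genes (filled triangles) and other transcript starts of those genes (open triangles). Both ends are uncovered in each example, but the cover comes near an end in some. It runs from 45.2 to 98.1% of the width at Tcfap2a and starts at 1.48% at Zic1 with Zic4. At Irx5 the cover is 2.93% of the peak, at Sox2 14.4% and at Pax6 80.3%, and Vax2, Gata4 and Zic1 with Zic4 show 2 pieces.

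The covered parts of kept peaks were richer in CpG than the uncovered parts. Bins of 200 bases held a mean of 6.34 CpG in covered parts (10219 bins) and 4.69 in uncovered parts (6682 bins), and 25.8% against 15.7% of bins lay in islands. Lost peaks, at 8.92 CpG per bin and 42.6% of bins in islands, were richer than either. Within a peak, the covered part had more CpG per bin in 169 of 220 kept peaks that held both parts (76.8%, 70.8 to 81.9%). Of the 601 islands in kept peaks 351 (58.4%) were covered whole and 463 (77.0%) at least in part.

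In the 89 kept peaks less than 50% covered, the covered part had more CpG per bin in 57 (64.0%, 53.7 to 73.2%). The single most CpG-rich bin was covered in 158 of 227 kept peaks (69.6%) and in 34 of these 89 (38.2%), where by definition under 50% of the bases were covered. The position of the covered part and its composition were not separated here.

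Of 22350 protein-coding gene starts 631 (2.82%) lay in a control peak. Their fate is the background for every gene class below. The start was under an H3.3 K27M peak for 156 of the 631 (24.7%, 21.5 to 28.2%), in a kept control peak but uncovered for 76 (12%), and in a lost peak for 399 (63.2%). A start here is the 5′ end of the gene model. Another transcript start of the same gene was covered for 10 of the 76 genes with an uncovered start, Gata4 (at position 63864085 of chromosome 14), Sp9 and Sall4 among them.

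Within kept peaks 156 of 232 starts were covered (67.2%). In kept peaks at least 50% covered the share was 87.5% (133 of 152), and in those less than 50% covered 28.8% (23 of 80). Among 145 kept peaks with a single coding start and a single covered piece, the start was covered in 105 (72.4%). The median uncovered length was 1800 bases on the upstream side of the gene and 2000 on the downstream side, and more was uncovered upstream in 62 and downstream in 74. These values show no clear difference between the upstream and downstream margins.

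Transcription factor genes held most of the covered starts. Across 13 lists of developmental transcription factor families 199 of 474 annotated gene starts lay in control peaks. Of these 113 were covered (56.8%, against 24.7% of all coding starts), 42 were uncovered in a kept peak and 44 lay in lost peaks (22.1%). The control peaks under these genes were wide, with a median of 15399 bases against 4599 for all coding starts, so that width and gene class moved together. In control peaks of at least 10000 bases 98 of 136 transcription factor starts were covered (72.1%), against 62.5% of the 200 coding starts of any kind in such peaks. Genes in the same control peak share its kept or lost call, though not whether their own start is covered, and Hoxa3, Gsx2 and Alx1 are each counted as 2 gene models.

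Homeobox genes were the largest group, with 71 of 118 starts covered (60.2%) across 6 lists. Of 37 starts of ANTP-class homeobox genes outside the Hox, DLX and Iroquois families 30 were covered, the highest number of any list. They included Msx1 (11599 bases in the control, 93.1% covered), Nkx2-1 (20399 bases, 89.2%), En2 (20399 bases, 90.2%) and Pdx1 (13799 bases, 66.7%), genes of limb and face, lung and thyroid, midbrain and pancreas. The 3 lost starts of this list, Dbx1, Meox2 and Msx2, lay in control peaks of 5399, 3199 and 3599 bases. Barhl1, Hmx1, Vax2 and Nkx2-6 lay in kept peaks that were 20 to 39.5% covered, outside the covered part.

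Of 35 LIM, paired-like, sine oculis and POU homeobox starts 21 were covered, 8 were uncovered in kept peaks and 6 were lost. Otx2, a forebrain gene, kept 93.6% of 21799 bases, and Lhx5, a LIM homeobox gene of the nervous system, 95.5% of 13399 bases. Six3 (24399 bases, 86.1%) and Isl1 (22399 bases, 83.0%) were covered, whereas Six2 (4199 bases), Alx4 (5799 bases), Pitx3 (4999 bases) and Lmx1b (13199 bases) lay in lost peaks. Of the 5 PAX genes Pax2, Pax5, Pax6 and Pax7 were covered and Pax3, a neural crest and muscle progenitor gene, was not, with 17.2% of its 30199-base peak remaining. The Iroquois genes had no covered start; Irx3 and Irx5 were uncovered in kept peaks and Irx1 was lost. Of the DLX genes Dlx4 and Dlx6 were covered, and Dlx1, Dlx2 and Dlx3 were lost.

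The Hox list, with Evx1 and Evx2 at its ends, was split along the clusters. Of its 33 starts in control peaks 14 were covered, 13 uncovered in kept peaks and 6 lost. Covered were Hoxd10 to Hoxd13 with Evx2, Hoxc9 to Hoxc13, Hoxb9, Hoxb13, Hoxa13 and Evx1. Uncovered in kept peaks were Hoxd9, Hoxc6, Hoxc8, Hoxb7 and Hoxb8, together with Hoxa3, Hoxa5, Hoxa6, Hoxa7, Hoxa9, Hoxa10 and Hoxa11. Hoxd3, Hoxd8, Hoxc5 and Hoxb3 to Hoxb5 lay in lost peaks. In each of the 4 clusters the covered starts were those of the high-numbered genes, at the 5′ end of the cluster, and no start numbered below 9 was covered. The start of Hoxa11 lay 388 bases from the remaining HoxA piece and that of Hoxa5 42015 bases from it.

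bHLH genes, listed together with the AP-2 genes, had 13 of 23 starts covered. Covered were Olig2 and Olig3 (15199 bases, 64.5%, and 18399 bases, 93.5%), oligodendrocyte and hindbrain genes, Neurog1 and Neurog2, neurogenic genes, and Tal1, a blood and endothelial gene. Bhlhe22 was among those uncovered in kept peaks. Hey1, Hey2, Neurod1, Ptf1a and Olig1 were among the 7 lost. Forkhead genes had 10 of 15 starts covered, with the endoderm genes Foxa1 (21199 bases, 71.7%) and Foxa2 (27399 bases, 65.7%) among them, and Foxo6 and Foxq1 lost.

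Zinc finger transcription factor genes had 16 of 27 starts covered, 4 uncovered and 7 lost. Wt1, a kidney and gonad gene, kept 89.3% of 14999 bases, and Zic2 with Zic5 kept 87.6% of 28999 bases. Sall1, Sall2, Egr2, Egr3 and Prdm1 lay in lost peaks of 2399 to 4199 bases, and Osr2 in a lost peak of 12399 bases. Of the GATA genes, Gata3 lay in a kept peak with 7.49% of 15999 bases remaining, Gata4 had its gene-model start 1730 bases outside a covered piece, and Gata6 (11399 bases) was lost. Of the SOX genes Sox21 was covered, Sox2, the pluripotency and neural progenitor gene, kept 14.4% of 24999 bases with its start uncovered, and Sox9 and Sox12 were lost. Of the T-box genes Tbx20 was covered, and Tbx1, Tbx2 and Eomes were lost. Of the nuclear receptor genes Nr2e1 was covered, and Nr2f1, Nr3c2 and Nr4a3 were lost.

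Signalling, guidance, channel, adhesion and matrix genes lay in narrow control peaks, and no start of theirs was covered. Across these 6 lists 31 of 635 annotated starts lay in control peaks, 3 uncovered in kept peaks and 28 in lost peaks, where 24.7% of all coding starts were covered and 63.2% lost. The median control width under them was 2999 bases. At 2000 to under 5000 bases their peaks were kept in 2 of 20 cases (10%), near the 7.81% of peaks with another coding start and the 14.5% of peaks with none, so nothing particular to these genes is read from the counts. The 6 starts of the WNT list were lost, the ligand genes Wnt1, Wnt3a and Wnt9a, the receptor gene Fzd3 and the inhibitor genes Wif1 and Axin2. The 4 starts of the FGF, BMP, TGF-beta and hedgehog list were also lost, the ligand genes Ihh and Inhbb, the BMP antagonist gene Nog and the receptor gene Ptch1. The 6 cadherin and protocadherin starts, Pcdh10, Pcdh17 and Cdh11 among them, and the 5 axon guidance starts, Unc5b and Ephb4 among them, were lost. The 3 in kept peaks were Slc32a1, the vesicular GABA transporter gene (8599 bases, 58.1% covered), the potassium channel gene Kcnh3 (4399 bases, 13.6%) and the cartilage collagen gene Col2a1 (3599 bases, 66.7%), each with its start outside the covered part.

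Polycomb genes themselves lay in control peaks in 5 of 30 cases. Cbx8, a reader of H3K27me3, lay in a kept peak of 18599 bases with 46.2% covered, and Pcgf1, a subunit of variant PRC1, in a kept peak of 11999 bases with 20% covered, both with uncovered starts. Cbx2 (2399 bases), a further CBX reader gene, and Bmi1 (8599 bases), a PCGF subunit gene, were among those in lost peaks. Of 80 ribosomal protein genes, 1407 olfactory and vomeronasal receptor genes and 7 cell-cycle inhibitor genes none had its start in a control peak.

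**Figure D4:**
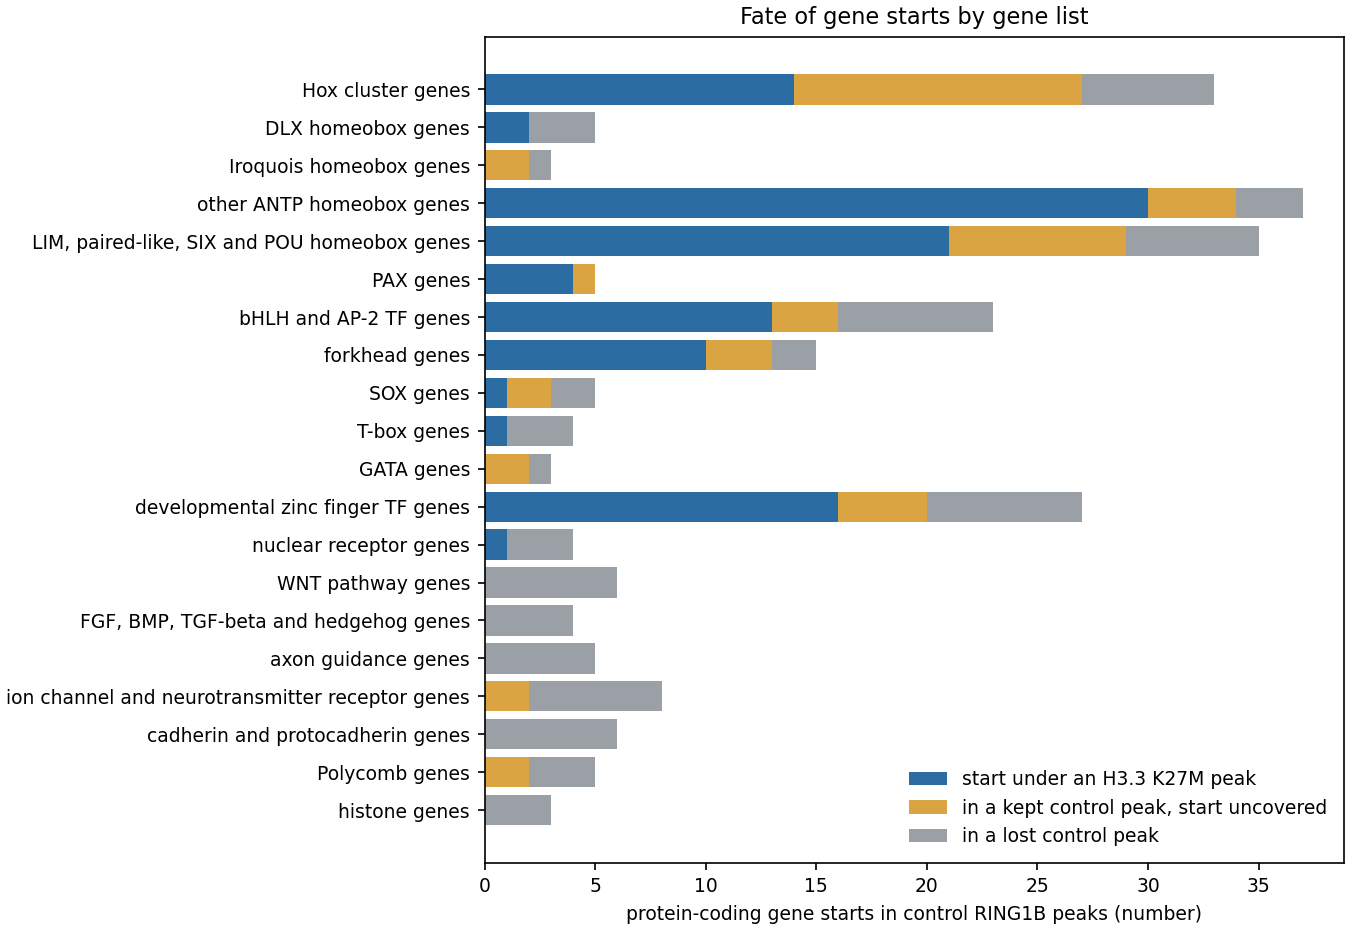
Number of protein-coding gene starts in control RING1B peaks for each gene list with at least 3 of them, divided into starts under an H3.3 K27M peak, uncovered starts in kept control peaks and starts in lost control peaks. The ANTP homeobox list has 30 covered starts of 37, and the Iroquois, GATA, WNT, FGF to hedgehog, axon guidance, channel, cadherin, Polycomb and histone lists have none.

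Since control width differed between gene classes, the share kept was also read within width classes, over peaks rather than starts. From 5000 to under 10000 bases 24 of 33 control peaks with a transcription factor start were kept (72.7%, 55.8 to 84.9%), against 17 of 55 with another coding start (30.9%, 20.3 to 44.0%) and 18 of 44 with no coding start (40.9%, 27.7 to 55.6%). From 10000 to under 20000 bases the values were 59 of 66 (89.4%), 10 of 23 (43.5%) and 10 of 11. From 2000 to under 5000 bases they were 5 of 26 (19.2%), 10 of 128 (7.81%) and 17 of 117 (14.5%), with overlapping intervals. From 5000 to under 10000 bases, where the median width was 6399 bases in both classes, peaks with a transcription factor start were thus kept more often than peaks with another coding start. From 10000 to under 20000 bases the median widths differed, 14899 against 12199 bases, so width was not equal there. Signalling peaks were too few above 5000 bases for such a comparison.

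Kept and lost peaks could lie side by side. Control peaks no more than 50 kb apart formed 74 chains of 2 or more peaks, of which 10 were all kept, 37 all lost and 27 mixed. In mixed chains the widest peak was kept in 25 of 27, and the median width was 15299 bases for the 30 kept and 2899 bases for the 40 lost peaks. These 40 are 6.73% of all lost peaks, but only 117 of the 594 lost peaks had another control peak within 50 kb. Most lost peaks thus stood alone in their chain and could not have a kept neighbour there. A kept peak with a control neighbour within 50 kb had a kept nearest neighbour in 23 of 51 cases (45.1%, 32.3 to 58.6%), and a lost peak in 28 of 117 (23.9%, 17.1 to 32.4%).

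Several mixed chains joined genes of related function. Olig2 was kept (15199 bases) beside a lost peak at Olig1 (4599 bases). Dlx4 was kept (11199 bases) beside Dlx3 (2399 bases). At the CBX cluster Cbx8 was kept (18599 bases) beside the lost peak at Cbx2. At HoxB the peaks at Hoxb13 (43999 bases) and at Hoxb7 to Hoxb9 (36599 bases) were kept beside the lost peak over Hoxb3 to Hoxb5 (37599 bases), which was as wide as the latter. Neurod2 was kept (14799 bases) beside a lost peak of 10599 bases at Ppp1r1b. At Dbx1 the order of widths was reversed, since its 5399-base peak was lost beside a kept peak of 2399 bases. Among uniform chains, Pdx1 and Cdx2, neighbouring gut homeobox genes, were both kept, and Wnt3a and Wnt9a were both lost.

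Few lost peaks had an H3.3 K27M peak nearby; 6 of 594 lay within 10 kb of 1 and 35 within 50 kb. Of these 6, the peak at Dgcr14 on chromosome 16 ended 1 base from a new peak of 399 bases that held the start of the homeobox gene Gsc2. The intervals occupy adjoining 200-base bins, so both calls rest on the requirement of a shared base.

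Of the 286 H3.3 K27M peaks 229 were kept (80.1%) and 57 were new (19.9%, 15.7 to 24.9%), which amounts to 2.08 and 0.226 Mb. The new peaks were narrower, with a median of 1199 bases (quartiles 399 and 4399) against 6799 bases. Of the 57 new peaks 27 were under 1000 bases, below the width of any control peak. A protein-coding start lay in 5 new peaks (8.77%) against 127 kept ones (55.5%), and an island in 11 (19.3%) against 205 (89.5%).

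Repeated sequence set the new peaks apart. In 26 of 57 new peaks (45.6%, 33.4 to 58.4%) and in 9 of 229 kept H3.3 K27M peaks (3.93%, 2.08 to 7.30%), over 50% of 32-base words occurred more than once in the genome. Among new peaks of at least 1000 bases these were 23 of 30 (76.7%). A run of 7 new peaks lay at chr5:14951601-15199999, among genes that include Speer4d, with 73.6 to 89.4% repeated words. A run of 6 lay at chr8:19729401-20024799, with 77.9 to 96.9%. Of the new peaks 10 lay within 500 kb of an end of the assembled chromosome sequence (17.5%), as did 8 of the 821 control peaks (0.974%). The authors' aligner reports reads that match several places, and its part in these peaks was not tested.

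Among new peaks with little repeated sequence, that at chr1:19219601-19227199 spanned 7599 bases with 5.92% repeated words and overlapped an exon of Tcfap2b, an AP-2 gene of kidney and neural crest. It lay 18401 bases from the nearest control peak. The control peak at the Tcfap2b start (3799 bases) was itself kept and covered in full. The widest new peak, 73599 bases at chr11:3026201-3099799 over Sfi1, held 17.9% repeated words. It began 26200 bases from the first assembled base, so it is among the new peaks near a chromosome end. It alone supplied 73599 of the 226143 bases in new peaks. A new peak of 6199 bases on chromosome 17 at AY036118, with 17.7% repeated words, lay in a single island along its whole length. Of the 9 new peaks without a repeated word 6 held an island.

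**Figure D5:**
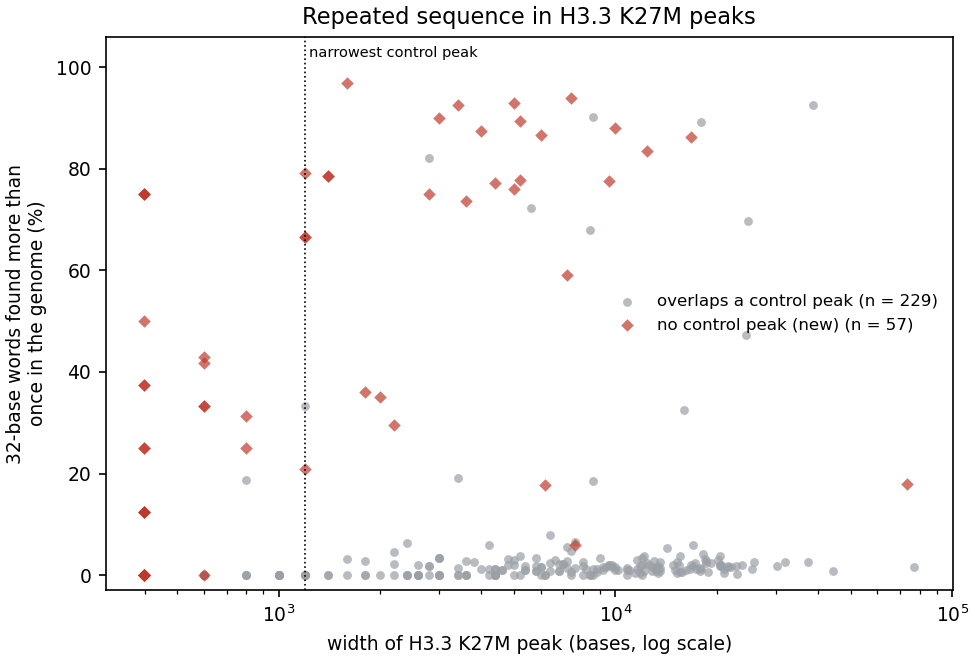
Width of each H3.3 K27M peak (bases, log scale) against the share of its 32-base words found more than once in the genome (%), for 229 peaks that overlap a control peak and 57 that do not; the dotted line marks the narrowest control peak, 1199 bases. Kept peaks lie mostly near 0%, and new peaks lie either under 1000 bases or above 50% with few exceptions.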

How the data were processed

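RING1B ChIP-Seq was performed by the authors on crosslinked, MNase-digested chromatin of control and H3.3 K27M MEFs, 1 library each. Per the study's methods, the authors aligned reads to mm9 with bowtie1 at default parameters (Bowtie 1.0.0 and deepTools are named in the submitters' processing notes) and called broad peaks with MOSAiCS-HMM at a minimum size of 1000 bases, a limit that 59 H3.3 K27M peaks do not meet. The stated maximum gap was 10000 bases, yet each list holds peaks that lie closer together. The deposited lists give the chromosome, start and end of each peak and no other value, so their coordinates have neither a normalization nor a depth. All 1107 starts were multiples of 200, and width was taken as end minus start. Printed positions are 1-based.

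Overlap, coverage, neighbours, CpG-island-like sequence, repeated 32-base words (every 50 bases) and gene starts (5′ ends of GENCODE vM1 gene models, 22350 protein-coding) were computed on NCBIM37, the assembly of mm9 (numba 0.67.0, scipy 1.17.1, pandas 2.3.3, numpy 2.4.6, under Python 3.11.15; matplotlib 3.10.9 for figures). The overlap and coverage code was tested on simulated peaks. Gene lists were matched by symbol. With 1 library per group no test was made.

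The comparison, the gene lists and the alternatives were chosen with earlier results of these data known. Named genes are those in the widest, narrowest, most and least covered, split, joined and new peaks, and members of each gene list with the widest control peaks in each fate. Other members were named after their values were seen, to complete a list. The EZHIP list, and the H3.3 K27R and EED deletion samples, were not used here.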

Additional observations from a re-analysis of the deposited data

How the results depend on the processing

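Of 40 recomputed values 23 stayed within their counting interval and 17 moved, 9 up and 8 down. When an overlap of 50% of both peaks was required, 16.0% of control peaks were kept and 54.2% of H3.3 K27M peaks were new. Without peaks under 1000 bases these shares were 23.8% and 13.2%, and without those under 5000 bases 44.9% and 9.59%; the median covered part rose to 65.5% and 72.6%. Leaving out peaks with over 50% repeated words gave 12.4% new. Covered coding starts made up 28.7% when starts within 5000 bases of a peak counted. Among kept peaks less than 50% covered, the midpoint was covered in 47.2% and the outermost twentieths in 3.37%. The share of lost peaks beside a kept peak was 3.54% with chains of 20 kb and 10.1% with 100 kb. Chosen after seeing the data, control peaks of at least 10000 bases gave 62.5% covered coding starts and 72.1% covered transcription factor starts, and new peaks of at least 1000 bases gave 76.7% with repeated sequence. Merging peaks within 10000 bases, autosomes alone, any transcript start and looser islands stayed within the intervals. No paired analysis was possible because each group has 1 library. Depth is unknown and limits every statement on lost peaks.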

Other observations

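Noncoding gene starts were also found in control peaks. Of 72 lincRNA starts in control peaks 26 were covered by an H3.3 K27M peak (36.1%), and of 63 processed transcript starts 27 were covered (42.9%), against 24.7% of protein-coding starts. Of 36 pseudogene starts 6 were covered, and of 22 microRNA starts of any name 6. These noncoding genes often lie beside the coding genes of the same peak and are not independent of them.

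Among 10 microRNA genes with a standard mouse name and a start in a control peak, Mir196a-1 (HoxB) and Mir196a-2 (HoxC) were covered. Mir196b, in the HoxA peak, Mir9-2 and Mir124a-1 lay in kept peaks outside the covered part. Mir10a, in the lost HoxB peak of 37599 bases, Mir615, Mir137, Mir124a-3 and Mir1199 lay in lost peaks. The control peaks of Mir9-2 and Mir124a-1, 26799 and 8599 bases wide, were 85.1% and 51.2% covered.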
